A study of Mus musculus with 6 samples.

Results

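Podocytes, the cells that wrap the glomerular capillaries, owe their identity to a small set of transcription factors and cofactors. The 9 genes described here are Wt1, Lmx1b, Tcf21, Foxc1, Foxc2, Foxd1, Ldb1, Meis2 and Lmo4, chosen by name and matched to the symbols of a count table with 21719 genes. Symbols matched for 8 of the 9, and Tcf21 is not analysed here. RNA came from 6 libraries of MPC5, a conditionally immortalised mouse podocyte line, all under high glucose. Of these, 3 carry the genotype label Setdb2WT and 3 the label Setdb2KO, the latter a knockout of Setdb2, a SET-domain protein linked to methylation of histone H3 lysine 9. The sources used here do not state whether the knockout line is a single clone, how it was edited, or whether the cells had been shifted to differentiating conditions. No libraries at normal glucose are part of the comparison, and nothing in the labels shows that each library is its own culture, so p-values measure the spread between these libraries, which may be technical.

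As background, WT1 is a zinc finger factor that switches on many genes of the filtration barrier, and LMX1B is a LIM homeodomain factor whose loss causes nail-patella syndrome. LIM homeodomain factors work with LDB1, an adaptor that pairs with itself and so joins DNA-bound partners. LMO4 has LIM domains but no DNA-binding domain, and competes for the same adaptor. FOXC1, FOXC2 and FOXD1 are forkhead factors: the FOXC pair overlaps in function in the developing kidney, FOXC2 acts early in podocytes, and FOXD1 marks the stromal progenitors of the kidney besides acting in podocyte development. MEIS2 belongs to the TALE homeodomain proteins, which bind DNA together with PBX partners, and TCF21 is a basic helix-loop-helix factor.

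Depth lay between 36461449 and 37129174 reads per library. Setdb2 itself had 12, 10 and 9 reads under Setdb2WT and 17, 15 and 25 under Setdb2KO, so the knockout label did not come with fewer reads of its target, and groups are called by their labels. Its scaled level did not pass the test (log2 fold change 0.73, SE 0.38; edgeR adjusted p = 0.088), except under total-count scaling (adjusted p = 0.043). Directions below take Setdb2WT as the reference. Levels are CPM, reads of a gene divided by library size, with the size corrected by TMM, a factor that evens out composition between libraries. "Rose" and "fell" mark an adjusted p under 0.05 (edgeR quasi-likelihood, Benjamini-Hochberg over all 13509 genes tested), a threshold that 83.8% of those genes passed.

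The line made almost no RNA from the podocyte factors Wt1 and Lmx1b. Under Setdb2WT, Wt1 had 1, 2 and 0 reads, and under Setdb2KO 0, 0 and 1. Lmx1b had 1, 0 and 1 reads against 0, 1 and 1. The sums, 3 and 1 reads for Wt1 and 2 and 2 for Lmx1b, stand against 110802625 and 109783392 reads in the groups, and neither gene passed the filter on low counts. Both were at or under the floor of 3 reads per group, which is 0.0286 CPM for Setdb2WT and 0.0259 CPM for Setdb2KO, so a difference between the groups was not detectable at this depth and no fold is given. Wt1os, transcribed opposite to Wt1, had 2 reads under Setdb2WT and 0 under Setdb2KO. Without a stated strand setting, reads of this pair cannot be told apart, and their sum is near 0 as well. In bulk RNA, here and below, fewer cells of a type and less RNA per cell cannot be told apart.

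Among the 6 members that passed the filter, all 6 passed the test, against 83.8% of all genes tested. Of them 3 rose and 3 fell, beside 41.5% of all genes tested that rose and 42.3% that fell. Their median log2 fold change was -0.03, against 0.00 over all genes tested. In all 6 the scaled levels of the groups did not overlap, which was so for 84.6% of genes tested. Changes of at least 2-fold occurred in 2 of the 6, Foxc1 and Foxc2, beside 32.6% of all genes. The other 4 changed by less than the median absolute log2 change of all genes tested, 0.66. Foxc2 is in these counts, though it passed the filter through the group where it was higher. Its call was lost when some libraries were left out, as given below. A share near the background says nothing particular about these factors, so their levels are given one by one.

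**Figure D1:**
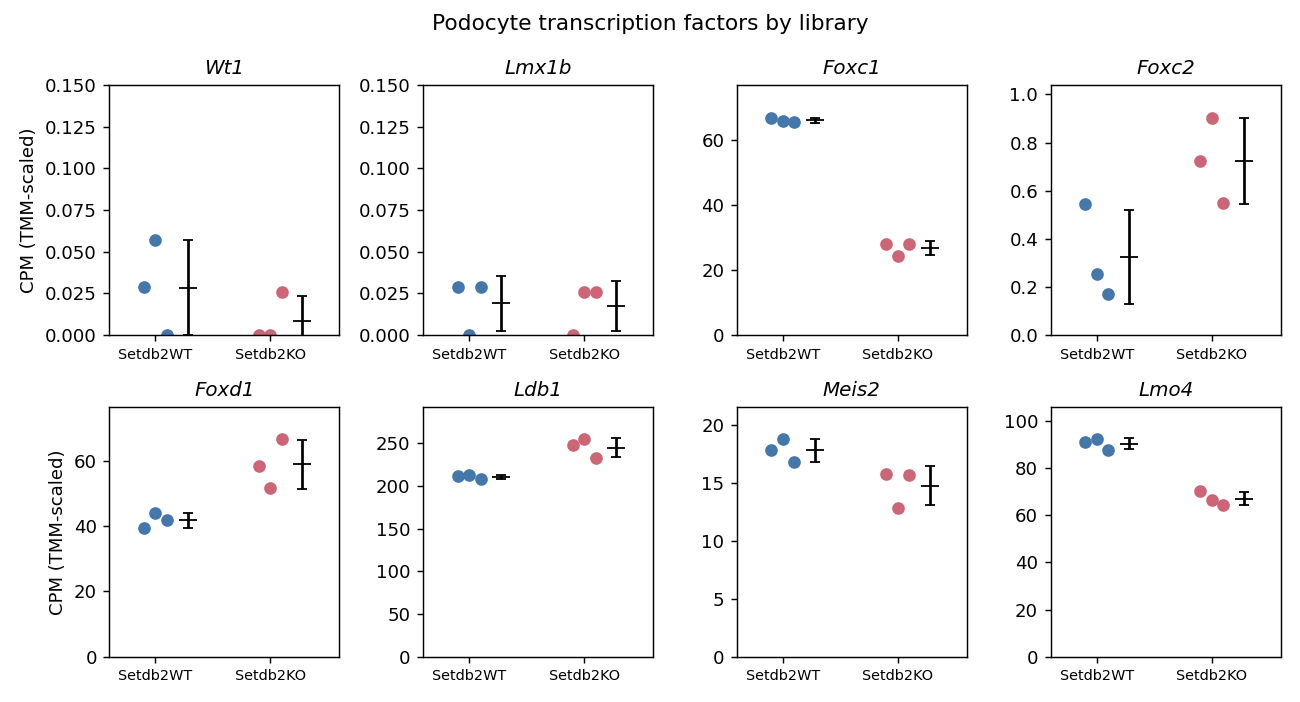
TMM-scaled CPM of the 8 factors in the table, 1 panel each with its own linear axis from 0; points are single libraries, and the bar beside them gives the mean and SD of 3 libraries. Foxc1 is lower in the libraries labelled Setdb2KO (24.4 to 27.99 CPM) than in those labelled Setdb2WT (65.3 to 66.8 CPM), Foxd1 is higher, and Wt1 and Lmx1b stay below 0.06 CPM in every library.

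Foxc1, the more abundant of the FOXC pair, had an absolute log2 change above those of Foxd1, Ldb1, Lmo4 and Meis2 in every alternative tried, while its order against the scarce Foxc2 depended on the setting. Under total-count scaling Foxc1 was at -1.15 and Foxc2 at 1.31, and without Setdb2WT replicate 1 they were at -1.30 and 1.73. Its levels were 66.8, 65.6 and 65.3 CPM under Setdb2WT and 27.8, 24.4 and 27.99 CPM under Setdb2KO. The lowest Setdb2WT library thus lay far above the highest Setdb2KO library, while the libraries within each group lay close together. Foxc1 fell 2.46-fold, with means of 65.9 ± 0.78 and 26.7 ± 2.0 CPM (± SD, 3 libraries each), with a log2 fold change of -1.30 (SE 0.05; adjusted p = 2.4e-11, edgeR). A larger absolute change was found in 23.4% of the genes tested.

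Foxd1, the stromal and podocyte forkhead gene, moved the other way. It measured 39.4, 43.9 and 41.8 CPM under Setdb2WT and 58.3, 51.7 and 66.5 CPM under Setdb2KO. The Setdb2KO libraries were all higher but spread more widely, with replicate 2 the lowest and replicate 3 the highest. The rise was 1.41-fold, with means of 41.7 ± 2.3 and 58.9 ± 7.4 CPM (± SD, 3 libraries each; log2 fold change 0.50, SE 0.08; adjusted p = 2.9e-05, edgeR).

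Foxc2 was scarce. It had 19, 9 and 6 reads under Setdb2WT and 28, 35 and 21 under Setdb2KO, or 0.543, 0.255 and 0.172 CPM against 0.724, 0.904 and 0.547 CPM. The highest Setdb2WT library nearly touched the lowest Setdb2KO library. The ratio of summed reads was 2.24, with an exact 95% interval (Clopper-Pearson) of 1.49 to 3.44 that covers counting error only. edgeR gave a log2 fold change of 1.16 (95% interval 0.26 to 2.05; adjusted p = 0.019). Foxc2 passed the filter through the group where it was higher, with 3 Setdb2KO libraries and 1 Setdb2WT library over the filter's level of 0.272 CPM. The call was lost when Setdb2WT replicate 2 (adjusted p = 0.084), Setdb2WT replicate 3 (adjusted p = 0.098) or Setdb2KO replicate 2 (adjusted p = 0.061) was left out.

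Foxc1 and Foxd1, which exchanged their order, both lie on chromosome 13, each with 1 start in RefSeq's promoter table. The 250 bases before each start are shown because they let the promoters of Foxc1, which fell, and Foxd1, which rose, be compared. They run 5′ to 3′ on the plus strand of GRCm38.p6, at chr13:31806396-31806645 for Foxc1 and chr13:98353995-98354244 for Foxd1. Capitals mark the GC box GGGCGG bound by SP1 and the CCAAT box, on either strand.
Foxc1: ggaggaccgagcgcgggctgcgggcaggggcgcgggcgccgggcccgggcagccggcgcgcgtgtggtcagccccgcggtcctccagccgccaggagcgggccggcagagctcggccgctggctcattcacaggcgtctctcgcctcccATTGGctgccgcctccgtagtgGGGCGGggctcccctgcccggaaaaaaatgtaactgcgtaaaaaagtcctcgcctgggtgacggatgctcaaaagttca
Foxd1: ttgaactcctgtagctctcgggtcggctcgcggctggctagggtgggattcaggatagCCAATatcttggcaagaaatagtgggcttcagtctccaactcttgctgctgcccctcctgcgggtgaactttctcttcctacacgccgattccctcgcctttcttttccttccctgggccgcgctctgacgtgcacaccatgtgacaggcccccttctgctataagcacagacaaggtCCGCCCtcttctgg

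Each window held 1 GC box and 1 CCAAT box, motifs found in 32.7% and 33.9% of the 32841 promoter windows of that length. The Foxc1 window was richer in CpG, with 29 CpG dinucleotides and 70.8% GC, against 12 and 57.2% for Foxd1 and medians of 6 and 52.4% over all windows. Both strands were also searched for the TATA box TATAAA (12.4% of windows), the forkhead motif GTAAACA (3.17%), the EGR and WT1 motif GCGTGGGCG (0.536%), the SMAD palindrome GTCTAGAC (0.167%), the LIM homeodomain motif TAATTA (4.84%), the MEIS motif TGACAG (15.9%) and the E-box CAGCTG (13% of windows). Of these, 1 MEIS motif in the Foxd1 window was the only match in these 2 windows. The EGR motif and the GC box can overlap by their shared letters. A match describes letters, and no match says only that these letters are not in the window. RefSeq windows were found for 6 of the 8 members in the table, with 3 starts each for Ldb1 and Lmo4. None was found for Wt1 or for Foxc2, the other forkhead member that rose, so Foxc2 could not be compared. The 3 Ldb1 windows held 40, 22 and 4 CpG dinucleotides and the 3 Lmo4 windows 44, 25 and 29, while the Meis2 window had 7 and a TATA box.

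Ldb1, the adaptor of LIM factors, was the most abundant member. Its levels were 211, 213 and 208 CPM under Setdb2WT and 247, 254 and 233 CPM under Setdb2KO. The rise was small, 1.16-fold, with means of 210.7 ± 2.4 and 244.7 ± 11 CPM (± SD, 3 libraries each; log2 fold change 0.22, SE 0.04; adjusted p = 6.5e-05, edgeR), and the groups did not overlap. Of the genes tested, 81.6% had a larger absolute change.

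Lmo4, the LIM-only protein that shares this adaptor, fell. It measured 90.9, 92.1 and 87.7 CPM under Setdb2WT and 70.1, 66.4 and 64.4 CPM under Setdb2KO, with all 3 of the latter below all 3 of the former. The fall was 1.35-fold, with means of 90.2 ± 2.2 and 67.0 ± 2.9 CPM (± SD, 3 libraries each; log2 fold change -0.43, SE 0.04; adjusted p = 2.4e-07, edgeR).

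Meis2, the TALE homeodomain factor, was lower by a small margin. Its reads numbered 623, 661 and 584 under Setdb2WT and 610, 496 and 601 under Setdb2KO, and these raw counts overlapped. After scaling, levels were 17.8, 18.7 and 16.8 CPM against 15.8, 12.8 and 15.7 CPM, without overlap. edgeR gave a fall of 1.21-fold (log2 fold change -0.27, SE 0.09; adjusted p = 0.010). Under total-count scaling, which shifted the median of all genes to 0.16, the log2 fold change was -0.12 and the test was not passed (adjusted p = 0.23). Nor was it passed without Setdb2WT replicate 2 (adjusted p = 0.051). Without Setdb2KO replicate 2, the lowest library, the log2 fold change shrank to -0.18.

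**Figure D2:**
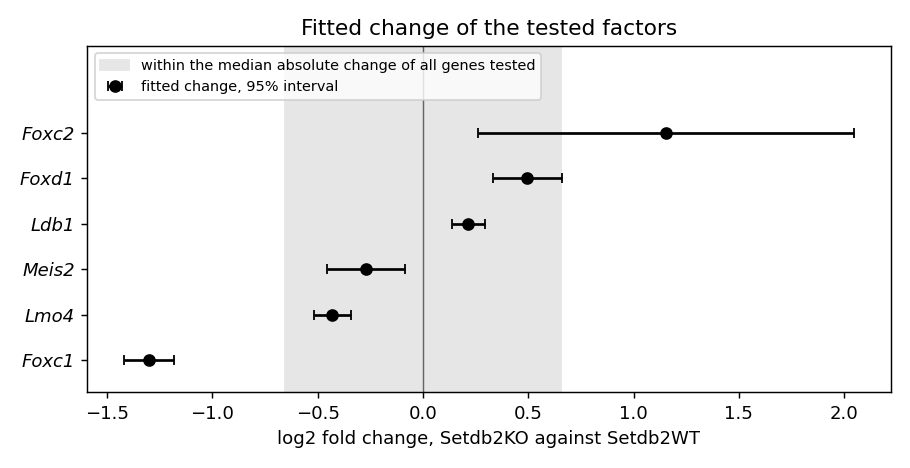
Fitted log2 fold changes of the 6 tested factors with 95% intervals; the grey band spans the median absolute change of all genes tested, 0.66 on either side of 0. Foxc1 lies outside the band at -1.30, the wide interval of Foxc2 runs from 0.26 to 2.05, and the other 4 estimates lie inside it.

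Divided by exon length (GENCODE M21, on GRCm38) so that genes can be compared, the members spanned a wide range. Ldb1 led with 45.7 ± 0.51 CPM per kilobase under Setdb2WT and 53.1 ± 2.4 under Setdb2KO (SD, n = 3 each), and Lmo4 followed with 25.6 ± 0.63 and 19.0 ± 0.83. Under Setdb2WT the order continued with Foxc1 (11.3 ± 0.13), Foxd1 (8.24 ± 0.45), Meis2 (1.48 ± 0.08) and Foxc2 (0.119 ± 0.071). Under Setdb2KO, Foxd1 (11.6 ± 1.5) stood above Foxc1 (4.58 ± 0.35), with Meis2 at 1.23 ± 0.14 and Foxc2 at 0.266 ± 0.065. Neighbours in these orders did not overlap in their libraries, except Wt1 and Lmx1b, which cannot be ordered near 0. Among 33 forkhead genes in the table, Foxc1 ranked 4 per length under Setdb2WT and 13 under Setdb2KO, Foxd1 ranked 6 and 5, and Foxc2 ranked 22 in both. These ranks are by mean, and some genes of nearby rank overlapped in their libraries. Under Setdb2WT, Foxc1 overlapped Foxf1, Foxd1 overlapped Foxk1, Foxo4 and Foxo3, and Foxc2 overlapped Foxn1 and Foxa3. Under Setdb2KO, Foxc1 overlapped Foxn2, Foxd1 overlapped Foxp4, Foxo3 and Foxf2, and Foxc2 overlapped Foxa3 and Foxd2. The many annotated exons of Meis2 lengthen its divisor, so its level per kilobase is a low estimate if only some are used.

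Ratios within a library do not depend on how libraries are scaled. Foxc1 over Foxd1, in reads per kilobase, was 1.47, 1.29 and 1.36 under Setdb2WT and 0.414, 0.409 and 0.365 under Setdb2KO. Foxc1 was thus above Foxd1 in every Setdb2WT library and below it in every Setdb2KO library. Lmo4 over Ldb1 was 0.559 ± 0.008 against 0.357 ± 0.015 (SD, n = 3 each), also without overlap. The single-stranded DNA-binding partners Ssbp2, Ssbp3 and Ssbp4, which stabilise LDB1, had a summed ratio to Ldb1 of 1.08 ± 0.01 against 0.507 ± 0.021. For each of these 3 ratios the exact two-sided permutation p was 0.1, the smallest that 3 libraries against 3 can give (0.13 adjusted over the 4 ratios computed). Each sets genes that fell over a gene that rose, so it restates the changes of single genes and is no further support.

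**Figure D3:**
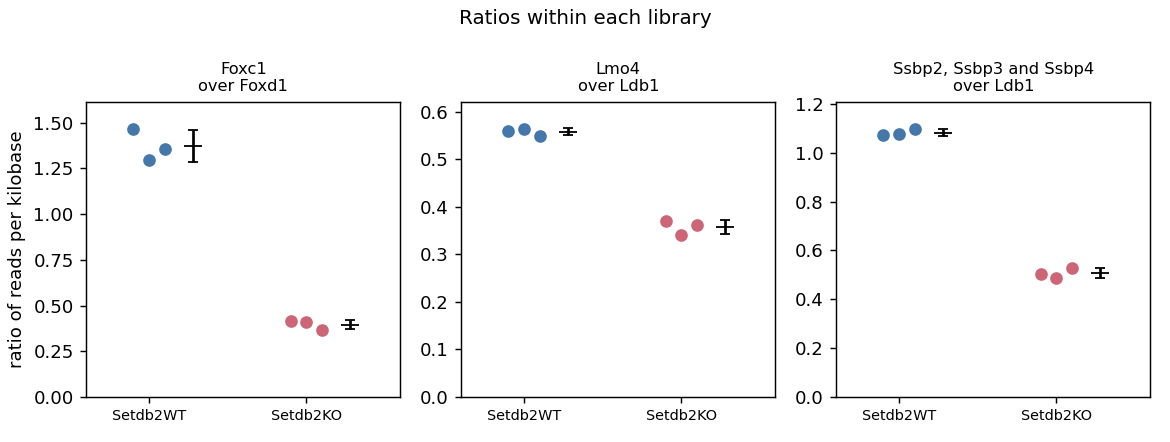
Ratios of reads per kilobase within each library; points are libraries, and bars beside them give mean and SD of 3. Foxc1 over Foxd1 lies between 1.29 and 1.47 under Setdb2WT and between 0.365 and 0.414 under Setdb2KO.

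Foxc1 and Foxc2 lie close to other forkhead genes, and gene order was read from RefSeq's GRCm38 annotation for the 5 nearest tested genes on each side. Foxq1 and Foxf2, the nearest tested genes on one side of Foxc1, both rose while Foxc1 fell. Foxf2 rose from 8.58 ± 0.30 to 24.1 ± 2.7 CPM (± SD, 3 libraries each), or 2.81-fold (adjusted p = 1.2e-09), and Foxq1 from 2.05 ± 0.61 to 7.47 ± 0.47 CPM, or 3.65-fold (adjusted p = 1.3e-07). On the other side, Gmds, which makes the fucose donor of glycans, fell 2.89-fold (adjusted p = 1.1e-12). Near Foxc2 on chromosome 8, Foxf1 fell 1.36-fold from 26.9 ± 0.55 to 19.8 ± 1.5 CPM. These 4 neighbours were chosen after their values were seen.

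Around each member, changes in both directions were found. Of 10 tested neighbours, 3 rose and 6 fell around Foxc1, 4 and 5 around Foxc2, 4 and 3 around Foxd1, 6 and 4 around Ldb1, 3 and 5 around Meis2, and 2 and 6 around Lmo4. Around the near-silent Wt1, 4 rose and 6 fell, and around Lmx1b 5 rose and 5 fell. Neighbours were drawn from tested genes only, so that they were measured was fixed by that rule. Their calls stand beside 83.8% over all genes.

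**Figure D4:**
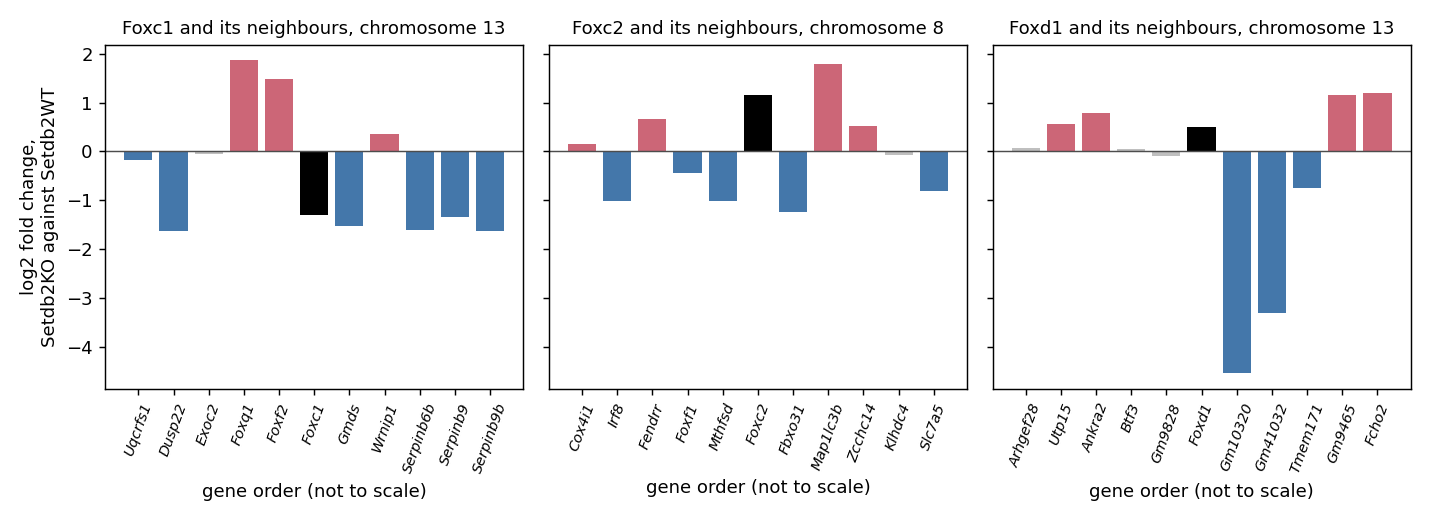
Log2 fold change of Foxc1, Foxc2 and Foxd1 (black) and of the 5 nearest tested genes on each side in gene order; red bars rose, blue bars fell and grey bars did not pass the test. Foxq1 and Foxf2 rose beside the falling Foxc1, and Foxf1 fell near Foxc2.

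The remaining forkhead genes moved in both directions too. Counts for this list and those below stand beside 41.5% of all genes tested that rose and 42.3% that fell. Of 41 other forkhead genes listed, 30 were in the table and 19 were tested, of which 10 rose, 5 fell and 4 missed the threshold; the median log2 fold change was 0.31 against 0.00 over all genes. Foxk1 and Foxn3 rose 2.10-fold and 2.05-fold, and Foxj2 and Foxj3 2.08-fold and 1.73-fold (adjusted p from 3.7e-12 to 3.5e-10, edgeR). Foxd2, a relative of Foxd1, measured 1.03 ± 0.35 and 1.25 ± 0.40 CPM (SD, n = 3 each) and did not pass (adjusted p = 0.42). By the table's own classes, 36 of 78 tested homeobox genes outside the members rose and 29 fell, and 26 of 54 basic helix-loop-helix genes rose and 22 fell.

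Partners of the LIM factors were split. Of 23 listed genes of LIM and LDB complexes, 19 were in the table and 11 were tested, of which 5 rose, 5 fell and 1 missed the threshold, and the median was 0.16. Ssbp4 fell 2.13-fold, with means of 120.0 ± 1.6 and 56.4 ± 0.41 CPM (± SD, 3 libraries each; adjusted p = 1.2e-12) and Ssbp2 1.65-fold. Lmo1, a second LIM-only gene, fell 2.18-fold from 17.5 ± 0.33 to 8.001 ± 0.59 CPM (adjusted p = 8.0e-09). Rlim, a ubiquitin ligase that acts on LIM factors and their cofactors, rose 1.74-fold from 136 ± 1.8 to 237 ± 19 CPM (adjusted p = 1.3e-09). Lmx1a, the closest relative of Lmx1b, had 3, 4 and 0 reads under Setdb2WT and 0 in each library of the other label, and was not tested.

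Among the TALE partners of MEIS2, 11 were in the table and 10 tested, of which 4 rose, 3 fell and 3 missed the threshold, and the median was 0.02. Tgif1, a TALE repressor, rose 2.34-fold, with means of 56.4 ± 1.2 and 131.7 ± 3.9 CPM (± SD, 3 libraries each; adjusted p = 8.7e-13). The MEIS partner Pbx2 fell 1.48-fold, Pknox1 fell 1.31-fold, and Pbx3 rose 1.17-fold. Meis1 measured 3.37 ± 0.98 and 3.31 ± 0.34 CPM and did not pass (adjusted p = 0.90), while Meis3 rose 1.21-fold (adjusted p = 0.0069).

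Inhibitors of factors such as TCF21 were lower, while their dimer partners moved in both directions. Of the 11 listed and present 8 were tested, of which 6 fell, 1 rose and 1 missed the threshold. The median was -1.49, and over all genes tested 42.3% fell and 41.5% rose. Under total-count scaling 5 of the list fell and 2 rose, and with DESeq2's size factors 6 and 2. Tcf3, an E protein that pairs with tissue-specific helix-loop-helix factors, fell 2.42-fold, with means of 207 ± 4.2 and 85.6 ± 1.4 CPM (± SD, 3 libraries each; adjusted p = 1.5e-13). The inhibitors Id1, Id2 and Id3, which bind E proteins, fell 5.24-fold, 3.27-fold and 11.3-fold.

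Genes known as WT1 targets in podocytes or in the developing kidney and gonad were measured although Wt1 was near 0. Of 26 listed, 22 were in the table and 19 were tested. Of these, 11 fell, 6 rose and 2 missed the threshold, and the median was -0.45. Over all genes tested, 42.3% fell and 41.5% rose. Podxl, a sialylated protein of the podocyte surface, fell 10.2-fold, from 50.5 ± 1.6 to 4.96 ± 0.38 CPM (± SD, 3 libraries each; adjusted p = 1.5e-14), Spry1, which restrains growth factor signals, 5.89-fold and the formin Inf2 3.80-fold. Nupr1, a stress-induced chromatin protein, rose 6.84-fold from 32.1 ± 1.0 to 219.7 ± 13 CPM (adjusted p = 2.5e-15).

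Of 12 WT1 partners and EGR relatives in the table, 10 were tested, of which 7 rose and 3 fell, with a median of 0.28. The coactivator Crebbp rose 2.37-fold, the zinc finger factor Egr3 2.27-fold and Sp1, the factor of the GC box, 1.46-fold from 165 ± 2.1 to 241.5 ± 6.4 CPM (adjusted p = 9.5e-10). Amer1, a WNT regulator that binds WT1, fell 2.81-fold (adjusted p = 2.0e-09).

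Reported LMX1B targets could be tested in 4 of 6 cases, of which 3 fell and 1 rose, with a median of -0.81. Col4a4, a collagen chain of the mature glomerular basement membrane, fell 2.81-fold, with means of 6.26 ± 0.39 and 2.22 ± 0.48 CPM (± SD, 3 libraries each; adjusted p = 5.9e-07). Its partner chain Col4a3 fell 1.71-fold (adjusted p = 0.0079) and the small GTPase Arl4c 1.80-fold (adjusted p = 1.8e-11). Cd2ap, an adaptor at the slit diaphragm, rose 1.53-fold from 415 ± 4.1 to 633 ± 67 CPM (adjusted p = 1.4e-07).

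Other regulators active in podocytes changed in both directions. Of the 15 listed and present 13 were tested, of which 8 rose, 4 fell and 1 missed the threshold, and the median was 0.39. Under total-count scaling 9 rose and 2 fell. Zhx2 and Zhx1, zinc finger and homeobox proteins, rose 6.25-fold and 1.94-fold, and Klf4, a Krüppel-like factor, 2.25-fold. Vdr, the vitamin D receptor, fell 11.3-fold, with means of 11.1 ± 1.0 and 0.976 ± 0.31 CPM (± SD, 3 libraries each; adjusted p = 1.4e-10).

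**Figure D5:**
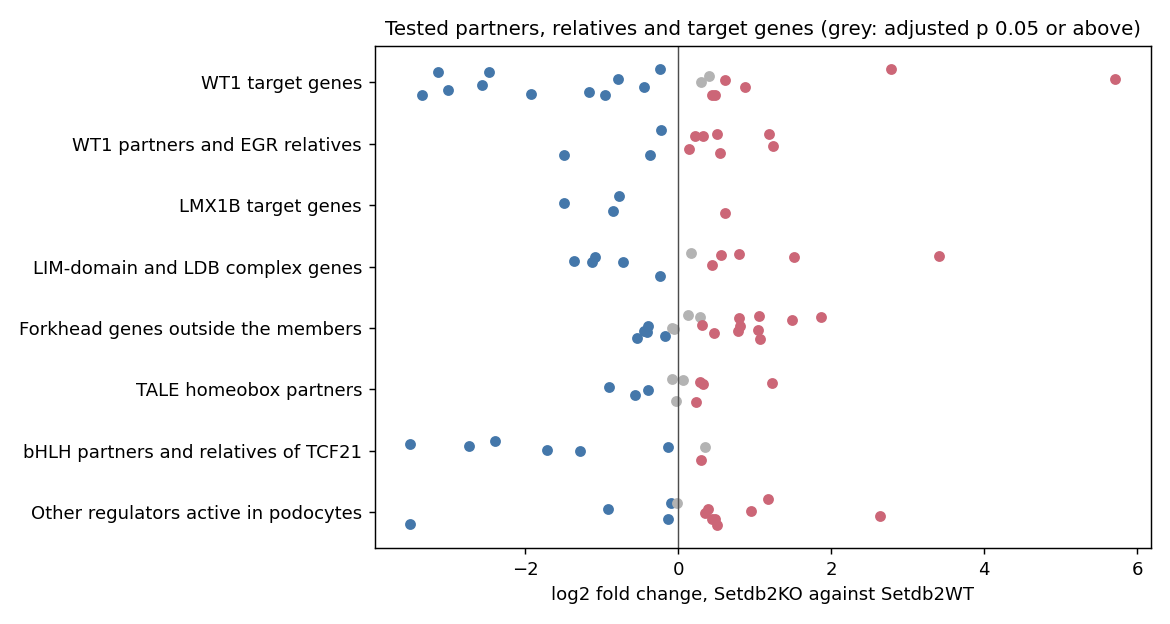
Log2 fold change of each tested gene in 8 lists of partners, relatives and targets, 1 point per gene with vertical scatter for legibility; red rose, blue fell and grey did not pass. Every list holds genes on both sides of 0, and some genes appear in more than 1 list.

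Markers were used to check the cell type on the label. Of 10 podocyte markers listed, 3 are not analysed here, and the other 7 were tested, of which 3 rose, 3 fell and 1 did not pass. Synpo fell 1.72-fold and Nes 1.18-fold, as Podxl fell. Cd2ap rose as given above. Plce1 measured 0.295 ± 0.098 and 0.544 ± 0.095 CPM and rose by a narrow margin (adjusted p = 0.045), which 7 of the alternatives tried did not keep. Magi2 measured 2.18 ± 0.40 and 2.88 ± 0.49 CPM and did not pass (adjusted p = 0.067), though it did under total-count scaling (adjusted p = 0.016) and without Setdb2WT replicate 2 or Setdb2KO replicate 1. The summed level of the 7 was 841 to 844 CPM under Setdb2WT and 890 to 999 CPM under Setdb2KO. Without Cd2ap, the most abundant of them, the other 6 summed to 422 to 432 CPM and 308 to 330 CPM. Nes made up most of that sum, at 324.7 ± 3.9 and 276 ± 10 CPM (± SD, 3 libraries each).

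Markers of other glomerular cells moved beside the forkhead genes. All 6 tested mesangial and stromal markers fell while Foxd1 rose, and 42.3% of all genes tested fell. Among these markers Des fell by a narrow margin (adjusted p = 0.0455, edgeR). Its levels were 0.72 ± 0.25 and 0.35 ± 0.23 CPM (± SD, 3 libraries each), and its libraries overlapped. The summed level of the 7 such markers in the table went from 133 to 138 CPM down to 32.0 to 34.4 CPM. Tagln and Acta2 made up most of that sum in both groups. On average Tagln went from 66.44 to 10.99 CPM and Acta2 from 42.09 to 15.46 CPM, so the sum mainly reads these genes. Itga8, the marker left untested, had 5 reads under Setdb2WT and 2 under Setdb2KO. Of 6 tested markers of parietal epithelium 5 fell and 1 rose, and their sum over 7 genes was 3049 to 3091 CPM against 1069 to 1152 CPM. Endothelial markers summed to 16.2 to 17.9 CPM and 16.7 to 18.2 CPM, with the defining Cdh5 and Emcn at 1 read or 0 in each library, and the 4 tested were 2 higher and 2 lower. The 4 immune markers in the table summed to 13.8 to 15.2 CPM and 9.46 to 11.9 CPM, with 1 higher and 1 lower of 2 tested. The part of other cell types in the members' changes was not tested.

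The genes whose profile over the 6 libraries lay nearest to that of Foxc1, by root-mean-square distance of centred log2 CPM, were Hnrnpdl (0.03), Spcs3 (0.04) and Tmem164 (0.04). Hnrnpdl, an RNA-binding protein, went from 434 to 173 CPM on average, Spcs3, a signal peptidase subunit, from 442 to 185 CPM, and Tmem164 from 76.9 to 30.5 CPM. With the groups far apart, such a distance mostly reads the size of the group difference. Chosen after their values were seen, in the same way, the nearest to Foxd1 were Mtf2 (0.04), Yaf2 (0.04) and Fam76b (0.05), of which MTF2 and YAF2 are Polycomb-associated proteins.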

How the data were processed

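The authors deposited raw read counts per gene, 1 column per library and not pooled. Per the submitters' processing notes, the tools were fastp, HISAT and HTSeq and the build GRCm39. The sources used here name no annotation or strand setting, so antisense and overlapping genes cannot be told apart. Total RNA was extracted with TRIzol, per the labels' protocols. Columns were matched to samples by genotype and number, and 0 stayed unmatched.

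Counts of all 6 libraries entered a quasi-likelihood fit in edgeR (4.0.16, under R 4.3.3) with genotype label as its term. Scaling was by TMM, the filter was filterByExpr at a minimum count of 10, and p-values were Benjamini-Hochberg adjusted. SE is that of the log2 fold change. DESeq2 1.42.0 and limma-voom (limma 3.58.1) were alternatives, with other scalings and filters, a replicate term and each library left out. The scripts were tested on simulated data. Counting error limits genes with few reads most. No pair of libraries looked like 1 library deposited again (chi-square per degree of freedom 2.55 to 15.7). The largest values were those of Setdb2KO replicate 2, 8.84 against replicate 1 and 15.7 against replicate 3. Setdb2KO replicates 1 and 3 gave 4.38 and Setdb2WT pairs 2.55 to 2.71, so replicate 2 stood apart over the whole table.

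Members and lists were chosen with earlier results of these data known. Genes named were all members, Setdb2, the podocyte markers, up to 4 per list (lowest adjusted p, below 0.05, mean of 1 CPM or more), and the 3 nearest in pattern to the tested member with the largest absolute log2 fold change in the edgeR fit as described (Foxc1); the same search for Wt1 was void because it was not tested. Other genes named were chosen after their values were seen. Gene order and promoters come from RefSeq on GRCm38.p6, where 97.1% of Entrez IDs were found. Protein sequences were not used here. A few genes that these rules name, and 1 ratio, are not reported here.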

Additional observations from a re-analysis of the deposited data

How the results depend on the processing

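The changes of Foxc1, Foxd1, Ldb1 and Lmo4 kept their direction and stayed past the threshold in all 14 alternatives, with log2 fold changes of -1.33 to -1.15, 0.40 to 0.65, 0.19 to 0.37 and -0.46 to -0.28. Foxc2 ran from 0.84 to 1.73 when a library was left out, and could not be tested under the CPM filter. Meis2 ran from -0.32 to -0.18 when a library was left out and was -0.12 under total-count scaling. Setdb2 passed under total-count scaling alone (log2 fold change 0.88). Whole-table counts stayed within 1.5 times. Replicate numbers did not pair the libraries (correlations of deviations -0.04 to 0.00), none was nearest to its own number, and the fit with the replicate block called 5529 genes higher and 5661 lower. The higher count among partners of TCF21 was 2 instead of 1 with DESeq2's size factors, upper-quartile scaling, total-count scaling and the DESeq2 Wald test, and 1 to 2 when a library was left out. Lower calls among other podocyte regulators numbered 2 instead of 4 under total-count scaling and the CPM filter. For these differences the cause was not tested. Depth limits Wt1, Lmx1b and Foxc2.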
